A study of Mus musculus with 4 samples.

Results

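The leukocyte integrin genes Itgax, Itgam, Itgal, Itga4, Itga6, Itga9 and Itgb2 were followed in single cells of the mouse corpus callosum, a large white matter tract of the brain. They were picked by gene symbol, with earlier results of these data known. All 7 were among the 16342 genes listed in any of the 4 count tables. Both week 0 libraries came from male C57BL/6 mice labelled as not treated, and both week 5 libraries from male C57BL/6 mice labelled as treated with cuprizone, a copper chelator that kills oligodendrocytes and strips myelin. All mice were 13 weeks old per the labels, which name no genetic change. Every library was made from live nucleated cells sorted for surface CD11b, the protein that Itgam encodes, so each value below is conditional on that gate. The labels do not state that the libraries of a week are separate animals or how many animals went into each, and p-values therefore measure the spread between libraries, which may be technical. The comparison asks how integrin transcripts differ between cuprizone-treated and untreated mice, and between microglia and the other sorted cells.

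An integrin is a pair of one alpha and one beta chain that binds ligands on other cells or in the matrix once talin and kindlin have switched it on from inside the cell. Itgb2 encodes the beta chain of leukocytes, CD18. It pairs with the alpha chains CD11a (Itgal), CD11b (Itgam), CD11c (Itgax) and CD11d (Itgad), of which CD11b and CD11c bind complement fragments and CD11a binds intercellular adhesion molecules. The alpha chains of Itga4, Itga6 and Itga9 pair with the beta chain of Itgb1, though not all of them with it alone: Itga4, for example, also pairs with that of Itgb7. Itga4 serves leukocyte entry through VCAM1 and fibronectin, Itga6 binds laminin, and Itga9 binds osteopontin, tenascin and VCAM1. Microglia carry CD11b at rest, and microglia with CD11c are known from developing and damaged white matter.

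The tables held 2415001 to 6559032 unique molecular identifiers (UMIs, 1 per captured transcript molecule) over 1000 barcodes each. After filtering, 3707 cells were used. Microglia-like cells numbered 902 and 898 in week 0 replicates 1 and 2, and 911 and 853 in week 5 replicates 1 and 2. Their 12 microglia markers, all detected in every library, summed to 30034 and 34099 CPM of total UMIs (counts scaled to a common total, also the unit of the cluster and class levels below) in the week 0 libraries and to 17932 and 22413 CPM in the week 5 libraries. The other cells were 75 border-associated macrophage-like cells, 31 cells of an unnamed cluster led by S100a9 with genes of both neutrophils and T and NK cells, 22 choroid plexus epithelium-like cells led by Ttr and 15 oligodendrocyte-like cells. At most 2 barcodes were shared by any pair of libraries. Depth differed: the median microglia-like cell had 1499.5, 3912.5, 6117 and 2332 UMIs in week 0 replicates 1 and 2 and week 5 replicates 1 and 2.

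On chromosome 7 of GRCm38, Itgal occupies 127296260 to 127335138, Itgam 128062640 to 128118491 and Itgax 128129547 to 128150657, all read from the plus strand, and 11055 bp separate Itgam from Itgax. Gm49368 is annotated over Itgam on the same strand. Itga6 and Itga4 are on chromosome 2 (71745616 to 71858416 and 79255426 to 79333123), Itga9 is on chromosome 9 (118606690 to 118901003) and Itgb2 on chromosome 10 (77530252 to 77565708), all on the plus strand. Cerkl overlaps Itga4 on the opposite strand, and Gm10157 and Gm2415 overlap Itga9 likewise. Itga6 has small overlapping genes on both strands. Values of Itgam, Itga4, Itga6 and Itga9 are uncertain to that extent. The 250 bases before the RefSeq start (GRCm38.p6, plus strand) are shown for the neighbours Itgax and Itgam, which behaved differently at week 5, and for Itga4, which rose without being a neighbour of either. They span chr7:128129300-128129549, chr7:128062390-128062639 and chr2:79255176-79255425. Capitals mark matches, on either strand, to 6 short motifs (overlapping matches would share capitals).

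Itgax: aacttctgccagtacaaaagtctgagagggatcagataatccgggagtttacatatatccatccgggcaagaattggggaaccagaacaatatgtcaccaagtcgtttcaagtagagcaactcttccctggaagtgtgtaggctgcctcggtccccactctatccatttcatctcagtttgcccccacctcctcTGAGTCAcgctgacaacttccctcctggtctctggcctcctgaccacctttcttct

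Itgam: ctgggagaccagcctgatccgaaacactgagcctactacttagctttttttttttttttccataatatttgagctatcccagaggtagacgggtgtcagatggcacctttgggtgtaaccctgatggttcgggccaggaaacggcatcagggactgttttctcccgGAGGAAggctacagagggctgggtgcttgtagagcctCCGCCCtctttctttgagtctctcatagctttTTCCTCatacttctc

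Itga4: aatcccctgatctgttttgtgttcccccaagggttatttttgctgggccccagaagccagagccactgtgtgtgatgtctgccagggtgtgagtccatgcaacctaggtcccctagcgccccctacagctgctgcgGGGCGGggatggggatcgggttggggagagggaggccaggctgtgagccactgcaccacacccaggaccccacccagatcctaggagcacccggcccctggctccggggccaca

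The first motif searched was GAGGAA, the core bound by PU.1, a master regulator of myeloid genes. AP-1 sites, where Fos and Jun proteins bind, were searched as TGANTCA. The Sp1 box of many promoters without a TATA box was searched as GGGCGG. The E-box, the TATA box and the interferon-stimulated response element were searched in their usual forms and had 0 matches in these windows. The Itgax window held 1 match, to the AP-1 letters, whose first base was at -56 from the start. The Itgam window held GAGGAA at -84 and, on the minus strand, at -15, and the Sp1 letters on the minus strand at -47. The Itga4 window held the Sp1 letters at -114. Over 32851 RefSeq promoters of this length, 23.3% held GAGGAA, 6.75% TGANTCA, 32.7% GGGCGG, 12.4% the TATA box (TATAAA), 6.02% the E-box (CACGTG) and 2.98% the interferon-stimulated response element. A match describes letters and does not show binding. The start of Itgax in RefSeq lies 3 bases inside the GENCODE gene.

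In microglia-like cells, 3 of the 7 members rose at week 5 and 0 fell: Itgax, Itgal and Itga4. Of all 11002 genes tested, 3.04% rose and 0.327% fell, in edgeR's quasi-likelihood test at an adjusted p under 0.05. These 3 members had at most 7 UMIs in a week 0 library and passed the filter on low counts through week 5 alone. They could therefore only be called up. The members were also chosen with earlier results of these data known, so setting them beside these shares is a description. On the same filtered genes, DESeq2 and limma-voom each called 3 members up and 0 down as well. At an unadjusted edgeR p under 0.05 there were 3 up and 1 down, Itga9. The median log2 fold change of the members was 0.16, against -0.02 over all genes tested. Itgb2, the shared beta chain, and Itgam, its main partner in resting microglia, did not pass, nor did Itga6 and Itga9. Levels of Itgax, Itgal and Itga4 lay higher in both week 5 libraries than in both week 0 libraries, as for 20.6% of all genes tested, and those of Itgam, Itga6 and Itga9 lay lower, as for 21.8%.

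**Figure D1:**
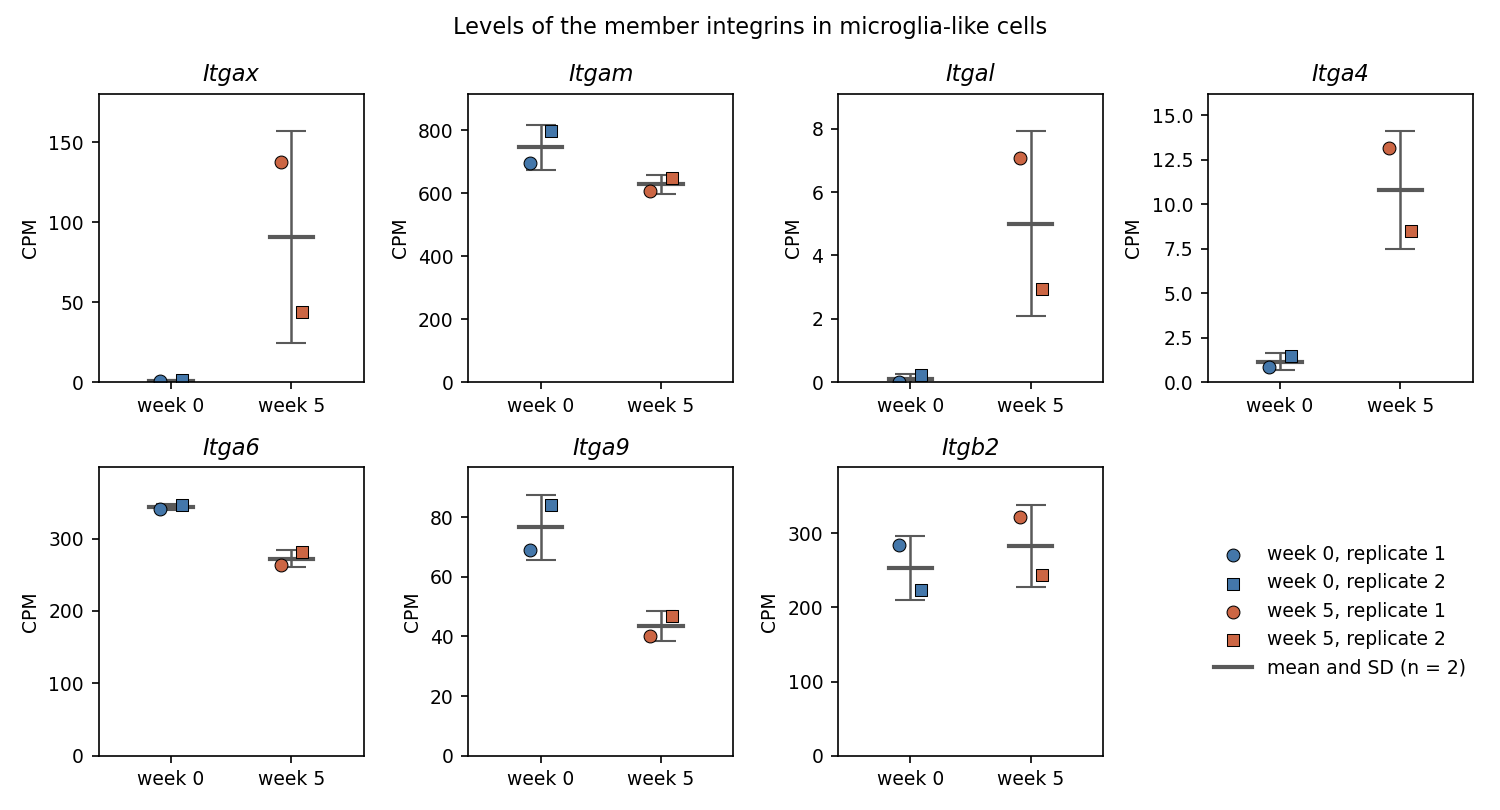
Level of each member (CPM of the effective library size, linear axes from 0) in the microglia-like cells of each library, with the mean and SD of the 2 libraries of a week. Itgax, Itgal and Itga4 sit near 0 at week 0 and above it in both week 5 libraries, with replicate 1 the higher; Itgb2 overlaps between the weeks, and Itga9 is lower in both week 5 libraries.

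Itgb2 stood at 284 and 223 CPM in week 0 replicates 1 and 2 and at 322 and 244 CPM in week 5 replicates 1 and 2. These levels and the others given by library beside a fold change are CPM of the effective library size, which corrects for the composition of each library and differs from CPM of total UMIs. The weeks overlapped, since week 0 replicate 1 lay above week 5 replicate 2. The log2 fold change of Itgb2 was 0.16 (SE 0.27, edgeR adjusted p = 0.887). Scaled by library size alone it was -0.09, so no direction can be given. That scaling moved the median over all genes from -0.02 to -0.25 and the called genes to 2.89% up and 0.982% down (3.87% in all, 74.6% of them up in place of 90.3%). With each cell thinned to 1000 UMIs, 24.3% and 20.6% of microglia-like cells had an Itgb2 UMI at week 0 and 22.7% and 21.3% at week 5.

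Itgam, the gene of the sorted protein, stood at 696 and 797 CPM in untreated and at 606 and 649 CPM in cuprizone libraries. Both week 5 libraries lay below both week 0 libraries. Its log2 fold change was -0.25 (SE 0.30, edgeR adjusted p = 0.828), less than its SE. Without thinning, an Itgam UMI was found in 71.8% and 86.4% of microglia-like cells at week 0 and in 78.9% and 68.1% at week 5. At an equal 1000 UMIs per cell the shares were 51.0% and 54.5% at week 0 and 38.2% and 44.0% at week 5, without overlap. The exact two-sided permutation test gave p = 0.333, the smallest that 2 libraries against 2 allow. Among cells that should lack the gene, 3 of 20 Ttr-led cells at week 5 carried an Itgam UMI unthinned, at a median of 5299.5 UMIs per cell. Over all libraries the Ttr-led cells also held 5079 CPM of microglia markers, so they are no clean background.

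Itgax, the CD11c chain, was nearly silent at week 0, with 2 and 5 UMIs over the microglia-like cells, and had 700 and 134 UMIs at week 5. Its levels were 0.826 and 1.06 CPM in untreated and 137 and 43.7 CPM in cuprizone libraries. Both week 5 libraries were far above week 0, and they differed from each other. The log2 fold change was 6.51 (SE 0.65, edgeR adjusted p = 0.000233). It was 5.44 without week 5 replicate 1, 7.14 without week 5 replicate 2 and 4.92 with thinned cells, and passed in each. An Itgax UMI was found in 0.222% and 0.557% of microglia-like cells at week 0 and in 25.1% and 9.14% at week 5, and cells with the gene held 3.06 and 1.72 of its UMIs on average at week 5. Thinned to 1000 UMIs per cell, the shares were 0% and 0.121% against 9.05% and 4.92% (exact permutation p = 0.333). Without thinning, 1 of 20 Ttr-led cells had Itgax at week 5, and that cell held 5 of its UMIs. This share is not at the depth of the thinned shares.

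Itgal, the CD11a chain of lymphocytes and other leukocytes, was scarce in microglia-like cells. It had 0 and 1 UMIs at week 0 and 36 and 9 at week 5, or 0 and 0.212 against 7.07 and 2.93 CPM. Both week 5 libraries lay above both week 0 libraries, by few molecules. Summed over libraries, the level at week 5 was 32.6 times that of week 0, with a counting interval of 5.56 to 1316, and with week 5 replicates 1 and 2 alone the ratio was 38.9 and 19.8. The fitted log2 fold change of 4.93 (SE 0.98, edgeR adjusted p = 0.0162) depends on the prior count of the fit, as 1 week 0 library has no UMI, and was 7.21 without week 0 replicate 2 and 4.43 without week 0 replicate 1. Itgal fell below the filter on low counts, and was not tested, without week 5 replicate 1 and without the Spp1-led cluster described below. At most 3.29% of microglia-like cells of a library had an Itgal UMI, and thinned to 1000 UMIs the shares were 0.235% and 0.399% at week 5, too close to single molecules to read a change from. Itgad, the fourth partner of Itgb2, had 1 UMI in all microglia-like cells together.

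**Figure D2:**
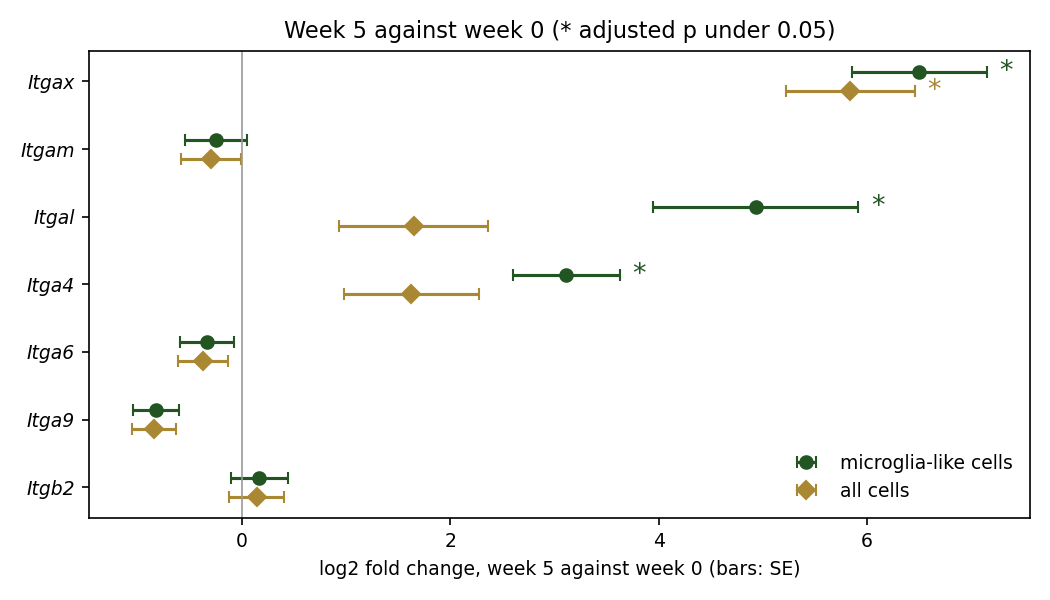
Log2 fold change of each member, week 5 against week 0, with its SE, in microglia-like cells (circles) and in all cells of a library (diamonds); stars mark an adjusted p under 0.05. Itgax passes in both, Itgal and Itga4 pass in microglia-like cells and not in all cells, and the other 4 members lie within about 1 of 0.

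The 4 alpha chains that pair with Itgb2 were also compared as shares of their summed UMIs. Itgax was 0.118% of 1688 and 0.133% of 3773 UMIs at week 0, and 18.3% of 3823 (95% exact binomial interval 17.1% to 19.6%) and 6.28% of 2134 (5.29% to 7.39%) at week 5. The weeks did not overlap, and the intervals of the week 5 libraries did not overlap each other either. The mean was 0.126 ± 0.00993% at week 0 and 12.3 ± 8.51% at week 5 (SD, n = 2 each; exact two-sided permutation p = 0.333, the smallest possible). Such a share does not depend on the size of the library, and on thinned cells it was 17.02% and 8.25% at week 5. Nearly all of the rest was Itgam, from 99.9% and 99.8% at week 0 to 80.7% and 93.3% at week 5. Intervals cover counting error only.

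**Figure D3:**
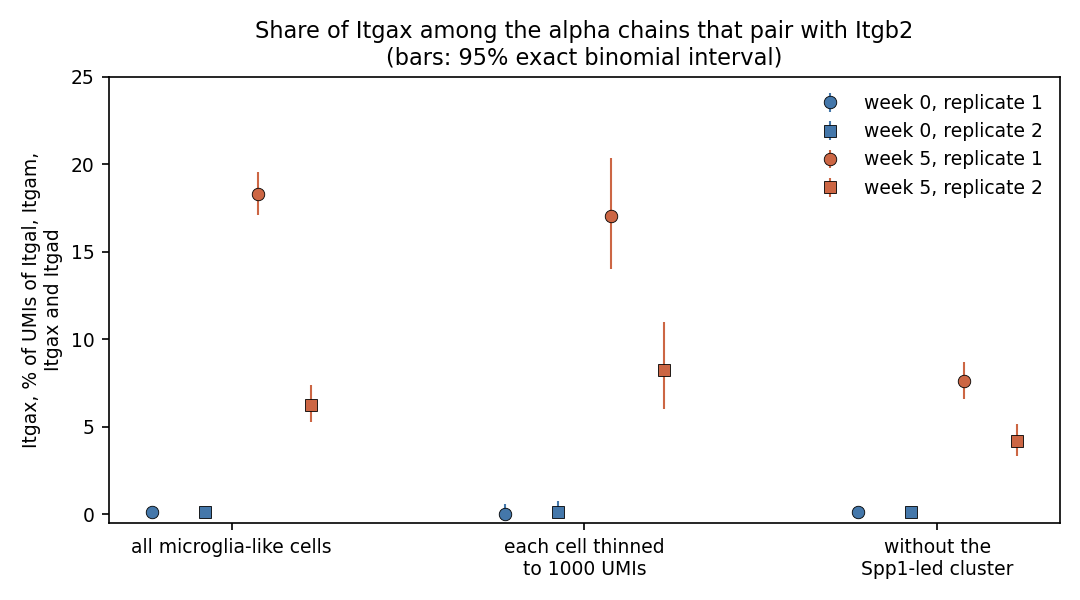
Share of Itgax (percent) among the UMIs of Itgal, Itgam, Itgax and Itgad in the microglia-like cells of each library, with 95% exact binomial intervals, for all such cells, for cells thinned to 1000 UMIs and without the Spp1-led cluster. The week 0 libraries sit at or below 0.142% in each setting; the week 5 libraries lie at 18.3% and 6.28%, and at 7.60% and 4.19% without the Spp1-led cluster.

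Itga4, whose product binds VCAM1, had 2 and 7 UMIs over the microglia-like cells of the untreated libraries and 67 and 26 over those of the cuprizone libraries. Its levels were 0.826 and 1.48 CPM against 13.2 and 8.48 CPM, and the weeks did not overlap. The log2 fold change was 3.12 (SE 0.51, edgeR adjusted p = 0.00537). Without week 5 replicate 1 it was 2.76 and did not pass (edgeR adjusted p = 0.0533). Only 0.222% and 0.780% of microglia-like cells had an Itga4 UMI at week 0 and 4.50% and 2.11% at week 5. Of its beta partners, Itgb1 is given with the other chains below, while Itgb7 had 1 UMI at week 0 and 1 at week 5 in microglia-like cells.

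Itga6, the laminin-binding chain, stood at 341 and 347 CPM in untreated and 264 and 281 CPM in cuprizone libraries. Both week 5 libraries were lower, yet the difference did not pass (log2 fold change -0.34, SE 0.26, edgeR adjusted p = 0.686). Thinned to 1000 UMIs per cell, 34.1% and 31.0% of microglia-like cells had an Itga6 UMI at week 0 and 21.2% and 24.3% at week 5. These shares did not overlap (exact permutation p = 0.333).

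Itga9, the osteopontin- and tenascin-binding chain, stood at 68.9 and 84.2 CPM in untreated and 40.04 and 46.9 CPM in cuprizone libraries. The weeks did not overlap. Its log2 fold change of -0.83 (SE 0.22) had an edgeR adjusted p of 0.0705 and so did not pass. The call depended on the setting in edgeR: it passed when scaled by library size alone (-1.05, adjusted p = 0.0215), with thinned cells (-1.29, adjusted p = 0.0125) and without week 5 replicate 2 (-0.89, adjusted p = 0.0057), and was -0.56 (adjusted p = 0.180) without the cluster led by Spp1 that is described below. Thinned to 1000 UMIs, the share of microglia-like cells with an Itga9 UMI was 9.38% and 9.77% at week 0 and 4.58% and 3.59% at week 5 (exact permutation p = 0.333).

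In all cells of a library together, which needs no cell names, Itgax rose (log2 fold change 5.84, SE 0.62, edgeR adjusted p = 0.00137) and was the 1 member of 7 that passed. Of the 11247 genes tested there, 2.69% passed, 2.44% up and 0.249% down. Itgal then had levels of 11.4 and 0.841 CPM in untreated and 16.9 and 16.0 CPM in cuprizone libraries (log2 fold change 1.65, edgeR adjusted p = 0.343). Itga4 had 17.3 and 1.89 CPM against 22.3 and 30.2 CPM (log2 fold change 1.62, edgeR adjusted p = 0.289). For both genes week 0 replicate 1 was far above replicate 2. Without week 0 replicate 1, Itgal (4.24, edgeR adjusted p = 6.82e-07) and Itga4 (3.76, adjusted p = 6.05e-08) passed. In a sum over all cells, more cells of a type and more RNA per cell cannot be told apart.

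Most Itgal UMIs came from a few other cells. Microglia-like cells held 1 of 33 Itgal UMIs at week 0 (3.03%) and 45 of 145 at week 5 (31.0%). The S100a9-led cluster held 30 of the 33 in its 8 week 0 cells and 91 of the 145 in its 23 week 5 cells. Itgal stood there at 831, 281, 1167 and 462 CPM in week 0 replicates 1 and 2 and week 5 replicates 1 and 2. At a clustering resolution of 2 this cluster split into 12 neutrophil-like and 19 T and NK cell-like cells. The neutrophil-like cells were led by S100a9, S100a8 and Retnlg but also by the monocyte marker Plac8. Whether monocytes are among them was not tested. Itgal was itself among the 10 leading genes of the neutrophil-like cells, so its level there is a description. For Itga4, the S100a9-led cluster held 30 of 53 UMIs at week 0 and 81 of 221 at week 5, and microglia-like cells held 9 and 93.

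Border-associated macrophage-like cells, from the linings and vessel walls of the brain, had 14, 0, 31 and 14 Itga4 UMIs in 16, 5, 29 and 25 cells, or 163, 0, 170 and 133 CPM of total UMIs (libraries in the same order). The library without a UMI had 5 such cells. Itgal had 2, 0, 7 and 2 UMIs there. Itgax had 0 and 0 UMIs at week 0 and 5 and 5 at week 5, the latter at 27.4 and 47.5 CPM. Itgam was lower than in microglia-like cells in each library, at 163, 306, 230 and 114 CPM against 757, 855, 503 and 661 CPM of total UMIs.

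**Figure D4:**
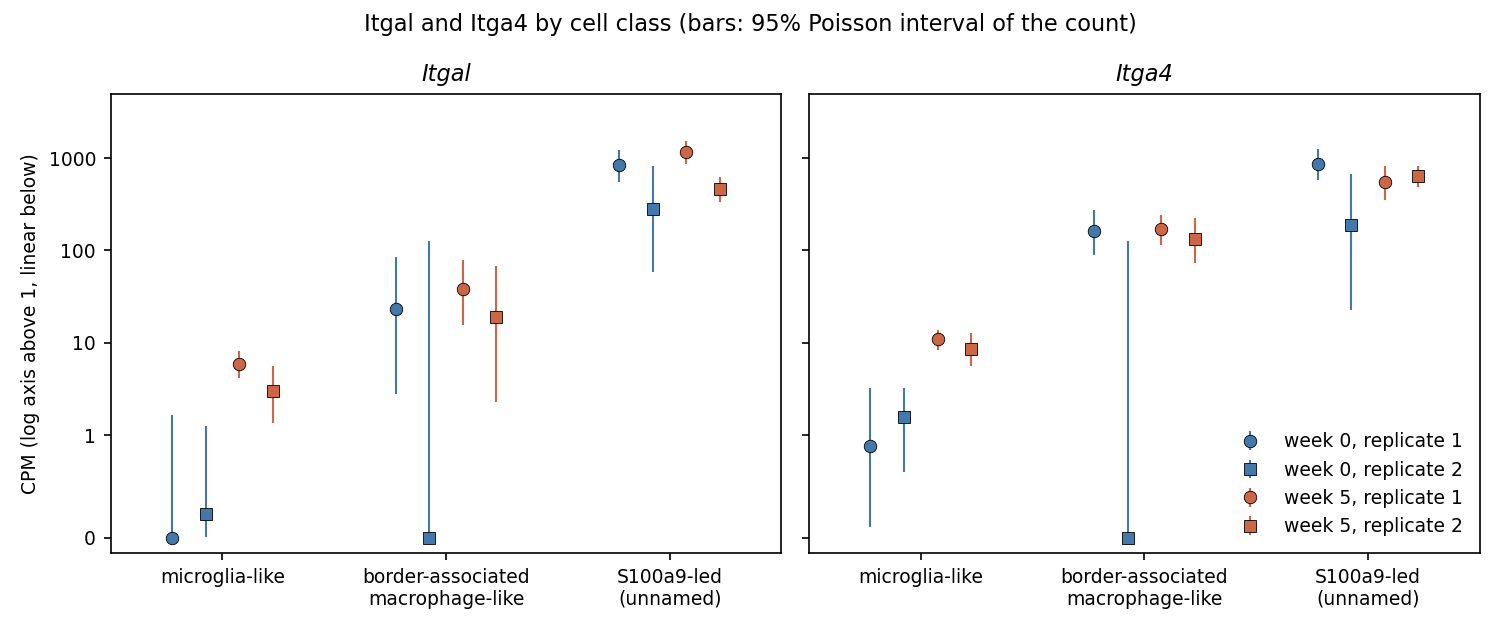
Level of Itgal (left) and Itga4 (right) in CPM of total UMIs (logarithmic axis above 1, linear below) by cell class and library, with 95% Poisson intervals of the count. Both genes lie highest in the S100a9-led cluster, where Itgal reached 1167 CPM; Itga4 is also high in border-associated macrophage-like cells except in week 0 replicate 2, which has 0 UMIs in 5 cells.

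Averaged over the 4 libraries, all cells that were not microglia-like had 161 ± 64.5 CPM of Itgal against 2.27 ± 2.75 CPM in microglia-like cells (SD, n = 4), 71.1 times as much and higher in 4 of 4 libraries. Itga4 stood at 210 ± 131 against 5.51 ± 5.02 CPM, 38.1 times as much and higher in 4 of 4. In border-associated macrophage-like cells alone the mean of Itga4 was 116 CPM and that of Itgal 20.2 CPM. Itgam went the other way, at 180 ± 59.2 against 694 ± 150 CPM, and was lower in each of the 4 libraries. Itgb2 stood at 275 ± 71.9 against 266 ± 30.8 CPM and was higher outside microglia-like cells in 3 of 4 libraries. Itga9 stood at 53.7 ± 22.6 against 61.6 ± 25.9 CPM and was higher outside microglia-like cells in 0 of 4. For both genes the direction depended on which cells were pooled. In border-associated macrophage-like cells alone, the mean of Itgb2 lay below that of microglia-like cells. That of Itga9 lay above the mean of microglia-like cells. Itga6 stood at 188 ± 160 against 312 ± 74.1 CPM and was higher outside microglia-like cells in 1 of 4 libraries. Itgax was at 34.0 ± 14.1 against 40.1 ± 53.3 CPM, with the weeks far apart in microglia-like cells. The classes were made from the same cells and genes, so these differences are descriptions with no test.

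Markers of other leukocytes were also counted in microglia-like cells. Of 8 neutrophil markers, 5 were listed and 1 or 2 had a UMI in a library. They summed to 0.449 and 1.36 CPM in untreated and 2.44 and 1.33 CPM in cuprizone libraries, nearly all of it Cxcr2. S100a8 and Retnlg were at 0 in all 4 libraries, and S100a9 at 0 in both week 5 libraries. Of 10 T and NK cell markers, 0, 0, 1 and 2 had a UMI (0, 0, 0.652 and 0.996 CPM in sum), with Cd3e, Cd3d, Cd3g, Trac and Ncr1 at 0 throughout. The 10 monocyte markers summed to 6.29 and 10.0 CPM in untreated and 11.9 and 9.62 CPM in cuprizone libraries, with 4, 4, 6 and 6 of them detected and F10 at 0 in all. Ccr2 led them in both untreated libraries and in week 5 replicate 2, where the rest summed to 2.69, 2.73 and 4.98 CPM. In week 5 replicate 1, Plac8 (28 UMIs) and Ly6i (25 UMIs) led, out of 73 UMIs. The 12 markers of border-associated macrophages summed to 386, 258, 254 and 262 CPM, with 6, 9, 12 and 7 detected. Without Stab1, which held most of these UMIs, the other markers summed to 14.4 and 13.2 CPM in untreated and 97.4 and 23.6 CPM in cuprizone libraries, highest in week 5 replicate 1, which also had the most Itgal and Itga4 UMIs. In that library Pf4 came next after Stab1, with 271 UMIs.

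Cell by cell, 35 markers of neutrophils, T and NK cells, monocytes, B cells and dendritic cells were counted, among which Ighm had the most UMIs. In week 5 replicate 1, 24 of 30 microglia-like cells with Itgal (80%) had a UMI of at least 1 such marker, against 59.3% of the rest, and in replicate 2 these were 5 of 8 cells (62.5%) against 46.2%. For Itga4 they were 46.3% against 60.6% in replicate 1 and 55.6% against 46.1% in replicate 2. Cells with Itgal were deeper, with medians of 14353 against 6008 UMIs in replicate 1 and 4734 against 2329 in replicate 2, as were cells with Itga4 (10512 against 6024.5, and 4435.5 against 2248). The part of other cell types in the rises of Itgal and Itga4 was not tested.

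Microglia-like cells formed 8 clusters, named here by their first leading gene, and the members were spread unevenly over them. Itgax at week 5 was highest in the Spp1-led cluster, with 198 CPM (516 UMIs in 189 cells) in replicate 1 and 228 CPM (49 UMIs in 40 cells) in replicate 2. It came next in the Ccl4-led cluster, also marked by Ccl2 and Egr1, with 156 and 161 CPM in replicates 1 and 2. The intervals of both clusters overlapped within each replicate (181 to 216 against 120 to 199 CPM in replicate 1, and 169 to 302 against 115 to 219 CPM in replicate 2). In the Ddit4-led cluster it stood at 45.3 and 22.4 CPM. Lower levels followed in the Cxcl10-led cluster of interferon-response genes (32.6 and 0 CPM), the Gm43221-led (24.2 and 15.3 CPM), the Gm10848-led (15.9 and 18.8 CPM) and the Camk2n1-led cluster (23.9 and 10.2 CPM), which did not differ beyond their counting intervals. The Gp9-led cluster, led also by P2ry12, had 0 Itgax UMIs in its 62 week 5 cells, which allows a share of up to 4.84% of cells with a UMI.

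The replicates of week 5 had overlapping Itgax intervals within the Spp1-led and within the Ccl4-led cluster, while over all microglia-like cells the level was 114 and 44.5 CPM of total UMIs. In the Ddit4-led, Cxcl10-led, Camk2n1-led and Gm43221-led clusters the level was higher in replicate 1, and in the Gm10848-led cluster in replicate 2. The Spp1-led cluster held 189 of the 911 microglia-like cells in replicate 1 and 40 of 853 in replicate 2, and 66.1% of the 855 Itgax UMIs in all cells of week 5. Without this cluster Itgax still rose (log2 fold change 5.36, SE 0.43, edgeR adjusted p = 5.36e-07). Its share of the partner UMIs was then 7.60% (interval 6.58% to 8.73%) and 4.19% (3.36% to 5.15%) in week 5 replicates 1 and 2. With the integrin genes left out of the clustering, the log2 fold change of Itgax was 6.49 (SE 0.65). The source of the difference between the replicates was not tested.

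Itgam and Itga6 were lowest at week 5 in the Spp1-led and Ccl4-led clusters, where Itgax was highest, and Itga9 was lowest in the Spp1-led cluster. Itgam stood at 330 and 252 CPM in the Spp1-led and at 542 and 390 CPM in the Ccl4-led cluster in replicates 1 and 2. In the other 6 clusters both replicates lay between 594 and 964 CPM. Itga6 was at 137 and 79.2 CPM in the Spp1-led cluster, at 202 and 169 CPM in the Ccl4-led cluster and at 225 to 518 CPM elsewhere. Itga9 was at 5.76 CPM (15 UMIs) and 0 CPM in the Spp1-led cluster, against 53.7 and 58.6 CPM in the Ddit4-led and 80.1 and 51.4 CPM in the Gp9-led cluster. The intervals of Itga9 in the Spp1-led and Ddit4-led clusters did not overlap in either replicate (3.22 to 9.50 against 44.6 to 64.2 CPM in replicate 1, and 0 to 17.2 against 47.0 to 72.1 CPM in replicate 2). Itgb2 lay at 243 and 228 CPM in the Spp1-led cluster, within the 198 to 358 CPM of the other clusters of week 5. The clusters were made from the same cells and genes, so differences between them, here and above, are descriptions with no test. The intervals cover counting error only.

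**Figure D5:**
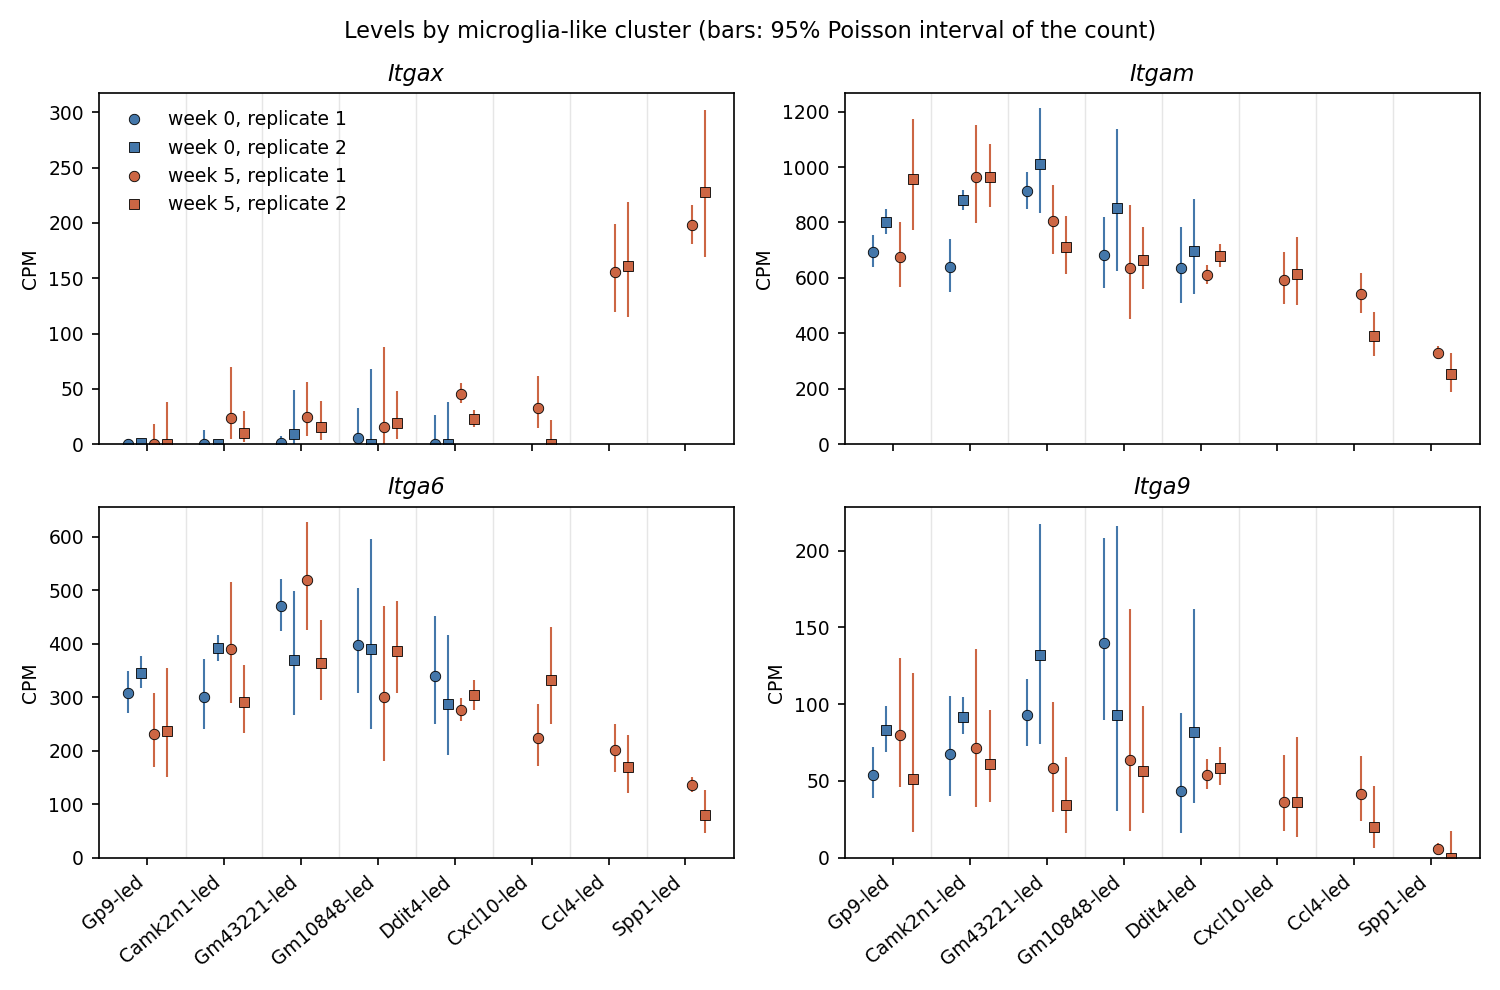
Level (CPM of total UMIs, linear axes from 0) of Itgax, Itgam, Itga6 and Itga9 in each microglia-like cluster and library with at least 20 cells, with 95% Poisson intervals of the count. Itgax climbs in the Ccl4-led and Spp1-led clusters, to 198 and 228 CPM in the latter, where Itgam (330 and 252 CPM), Itga6 and Itga9 lie lowest.

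The Gp9-led, Camk2n1-led, Ddit4-led, Gm43221-led and Gm10848-led clusters had at least 20 cells in each library, so that the weeks can be set side by side within them. Itgam overlapped between the weeks in the Ddit4-led cluster (637 and 698 CPM untreated, 612 and 681 CPM with cuprizone) and in the Gp9-led cluster. It was higher at week 5 in the Camk2n1-led cluster (641 and 879 against 962 and 964 CPM) and lower in the shallow Gm43221-led and Gm10848-led clusters. Itga6 was lower at week 5 without overlap in the Gp9-led (308 and 346 against 230 and 237 CPM) and Gm10848-led clusters and overlapped in the other 3. Itga9 overlapped in the Gp9-led (53.6 and 82.9 against 80.1 and 51.4 CPM), Camk2n1-led and Ddit4-led clusters. It was lower at week 5 in the Gm43221-led (92.7 and 132 against 58.1 and 34.4 CPM, on 73, 15, 12 and 9 UMIs) and Gm10848-led clusters. Cells of the weeks were spread differently over the clusters, and no test was made within them. Itgal and Itga4 were sparse in every microglia-like cluster: 27 of the 45 Itgal UMIs and 42 of the 93 Itga4 UMIs of week 5 were in the Spp1-led cluster, whose median cell had 13163 UMIs.

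Cells with an Itgax UMI in the unthinned counts of week 5 were deeper than the others, with medians of 10031 against 5281.5 UMIs in replicate 1 and 5188 against 2076 in replicate 2. Unthinned, Itgal was found in 9.61% of the 229 such cells and in 1.17% of 682 others in replicate 1, but in 1 of 78 (1.28%) and 0.903% in replicate 2. Itga4 was found in 11.4% against 2.20% in replicate 1 and 8.97% against 1.42% in replicate 2. At an equal 1000 UMIs per cell, 3 of 77 cells with Itgax had an Itga4 UMI and 2 of 774 others did in replicate 1, which leaves too few molecules to compare. P2ry12, a receptor of resting microglia, was at that depth in 26.0% against 63.4% of cells in replicate 1 and 24.3% against 63.9% in replicate 2. Spp1, which encodes osteopontin, was in 44.2% against 12.4% and 35.1% against 5.31%. Itgam was in 24.7% against 39.5% and 32.4% against 44.6% of cells. The cells with Itgax after thinning had medians, before thinning, of 7975 against 6287 UMIs in replicate 1 and 1760 against 4052 in replicate 2. All of these shares are counts of cells within 1 library and were not tested.

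Across 28 sums of a library and a cluster with at least 20 cells, the genes whose log2(CPM + 1) was most like a member's were ranked by Pearson's r among 8785 genes. The sums share libraries, clusters and depth, so r is a description. Itgax was most like Spp1 (0.86), the receptor tyrosine kinase gene Axl (0.79) and the growth factor gene Igf1 (0.79). Itgam was most like the adhesion receptor gene Adgrg1 (0.96), Golm1 (0.96) and Arhgap5 (0.95). Itgal was most like Ifitm3 (0.78), Cd72 (0.76) and Bst2 (0.75), at a mean of 5.32 CPM, where single molecules weigh on r. Itga4 was most like the oxidase gene Cybb (0.81), F630028O10Rik (0.80) and Gpx3 (0.78), Itga6 like Tanc2 (0.93), A930033H14Rik (0.91) and Rnf167 (0.90), and Itga9 like Heca (0.91), Kmt2e (0.91) and the cytokine receptor gene Lifr (0.90). Itgb2 had the weakest likeness, to Kpna3 (0.71), Gcsh (0.67) and Nsmce3 (0.66). Among the members, Itgam and Itga6 had an r of 0.77, Itga6 and Itga9 0.75, Itgal and Itga4 0.74, and Itgax and Itgam -0.54.

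Of the 19 other integrin chains, 15 were listed, 6 passed the filter on low counts and 0 passed edgeR's test, against 3.37% of all genes tested. DESeq2 and limma-voom called 0 of the 6 too, and at an unadjusted edgeR p under 0.05 there were 1 higher and 2 lower. Their median log2 fold change was -0.26. Itgb1, a partner of Itga4, Itga6 and Itga9, stood at 288 and 331 CPM in untreated and 274 and 265 CPM in cuprizone libraries (log2 fold change -0.20, SE 0.26, edgeR adjusted p = 0.840). Itgb5 was at 915 and 1001 CPM against 1062 and 893 CPM (0.03, edgeR adjusted p = 0.987). Its partner Itgav was at 179 and 160 CPM against 95.4 and 112 CPM, lower in both week 5 libraries (-0.71, edgeR adjusted p = 0.149). Of the integrin ligands, 8 of 23 were tested and 3 rose, with a median log2 fold change of 1.24 (DESeq2 called 4 and limma-voom 2). These were Spp1, Fn1 (fibronectin) and C3, whose cleaved fragment binds CD11b and CD11c. All 3 had at most 6 UMIs in a week 0 library and passed the filter on low counts through week 5 alone. They could therefore only be called up, and the list was chosen with earlier results of these data known. Fn1 had 1 and 0 UMIs at week 0 and 722 and 35 at week 5 (ratio 548, counting interval 98.1 to 21686), C3 had 1 and 0 against 101 and 19 (ratio 86.9, 15.3 to 3461), and Spp1 had 3 and 6 against 7354 and 1359. The fitted log2 fold changes in edgeR were 8.82 for Fn1 (SE 1.49, adjusted p = 0.00606), 6.27 for C3 (SE 0.97, adjusted p = 0.0037) and 9.51 for Spp1 (SE 0.73, adjusted p = 6.37e-05). With a library left out, Fn1 ranged from 6.00 (without week 5 replicate 1) to 11.4 (without week 0 replicate 1) and C3 from 4.92 (without week 0 replicate 2) to 8.85 (without week 0 replicate 1), while Spp1 was 8.43 without week 5 replicate 1 and 10.2 without week 5 replicate 2. By limma-voom the adjusted p of Fn1 was 0.171. With week 5 replicate 2 alone in place of both, the ratio of Fn1 was 77.0 and that of C3 was 41.8.

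Of 23 activation and adhesion adaptors, which switch integrins on or tie them to actin, 20 were tested and 0 passed edgeR's test, with a median log2 fold change of -0.02. DESeq2 and limma-voom also called 0 of the 20, and 2 were higher at an unadjusted edgeR p under 0.05. Fyb, an adaptor upstream of talin, was at 502 and 569 CPM in untreated and 675 and 747 CPM in cuprizone libraries (0.41, SE 0.30, edgeR adjusted p = 0.666). Apbb1ip, the Rap1 effector that recruits talin, was at 585 and 709 against 499 and 547 CPM (-0.31, edgeR adjusted p = 0.768). Talin's own gene Tln1 was at 326 and 405 against 333 and 305 CPM (-0.20, edgeR adjusted p = 0.852). Of 25 genes of integrin signalling, 23 were tested and 1 rose, with a median of -0.03. This was Fgr, a Src-family kinase of myeloid cells, at 4.54 and 2.54 CPM in untreated and 29.8 and 16.0 CPM in cuprizone libraries (log2 fold change 2.80, SE 0.42, edgeR adjusted p = 0.00316), which did not pass with thinned cells (edgeR adjusted p = 0.224). Tyrobp (1815 and 2225 against 5058 and 2370 CPM, edgeR adjusted p = 0.472) and Fcer1g (1374 and 1916 against 2857 and 1837 CPM, adjusted p = 0.702), signalling adaptors of myeloid receptors, were highest in week 5 replicate 1 and did not pass.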

How the data were processed

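UMI counts per gene and barcode were deposited as 4 tables; per the submitters' processing notes, STAR, Cell Ranger 3.0.0, Seurat 4 and mm10 were used, with roles and strand not given in the sources used here. Per the labels, libraries were made with a 10x 3′ kit. The highest number of genes per cell was 2999, 6615, 3999 and 2996, and the reason is not given. From these counts, barcodes under 500 genes or over 10% mitochondrial UMIs were dropped, which left 3728 of 4000, 21 doublets by Scrublet (0.563%) were removed, and cells were clustered with scanpy 1.11.5 (2000 variable genes, 30 components, 15 neighbours, Leiden resolution 1) into 12 clusters, named from marker lists. To be named for another type, a cluster needed at least 2 markers of that type among its 10 leading genes and at least 3 detected. A microglia-like cluster needed microglia markers that summed to at least 10 times those of each other type. No other type could have 2 leading markers there.

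UMIs were summed per library over microglia-like cells and tested with edgeR 4.0.16 (quasi-likelihood test, TMM factors, filterByExpr, Benjamini-Hochberg over all genes tested, R 4.3.3). SE is the log2 fold change over the root of F. DESeq2 1.42.0 and limma-voom (limma 3.58.1) were alternatives, with other scaling, filters, clustering and cells, and each library left out. Shares were compared by the exact permutation test. Intervals are 95% exact and cover counting error only; a count of 0 allows up to 3. In 10 simulated data sets of microglia-like sums (10795 to 10847 genes, 200 changed), 99.4% of 4-fold and 50.3% of 2-fold changes were recovered, and 7.21% of calls were false. Changes were planted only in genes with a higher mean level than Itgal and Itga4. The recovery rates therefore do not apply to these members or to other sparse genes.

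The members and lists were chosen with earlier results of these data known, and Fn1 was kept off the monocyte markers for that reason. Named from each list were genes that passed (at most 6 by lowest p) and, where fewer than 3 passed, those with the highest mean CPM up to 3. Likeness used genes with a mean of at least 10 CPM. No value column was left unmapped. The labels give replicate numbers without saying that they pair libraries.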

Additional observations from a re-analysis of the deposited data

Results flagged for a closer look

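For 3 members the levels in the clusters that were neither microglia-like nor border-associated macrophage-like (10 cells at week 0, 58 at week 5) moved against those of microglia-like cells, but on too few UMIs to show a direction. Itgax was at 50.1 and 187 CPM of total UMIs in the week 0 replicates and at 49.2 and 21.2 CPM in the week 5 replicates, a mean difference of -83.5 CPM, on 2, 2, 8 and 3 UMIs. Itga6 had a mean difference of 20.3 CPM, from 0 and 0 to 12.3 and 28.3 CPM, on 2 and 4 UMIs at week 5. Itga9 had a mean difference of 9.68 CPM, on 2 and 1 UMIs at week 5. A count of 0 in the week 0 replicates allows up to 75.1 and 281 CPM, above the week 5 levels of both genes. The difference from microglia-like cells was not tested.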

How the results depend on the processing

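Itgax passed in all 17 alternatives in microglia-like cells (adjusted p from 3.86e-79 to 0.0133, log2 fold change from 4.92 thinned to 7.14; 5.44 to 7.14 with a library left out) and in all 9 in all cells; Itgam and Itga6 passed in none and kept their sign. Itgal passed in 11 of 12 (4.43 to 7.21 with a library left out), not in all cells (1.65), and was not testable without week 5 replicate 1, without a cell filter, with a common gene limit, with thinned cells or without the Spp1-led cluster. Itga4 passed in 14 of 16, not in all cells (1.62) or without week 5 replicate 1, and ranged from 2.76 to 3.68 with a library left out (the lone library of a week is assumed to vary like the others); thinned, it could not be tested. Itga9 passed by library size only (-1.05), without a gene filter (-0.84), with a common limit of 2996 genes per cell (-0.69) and thinned (-1.29), and ranged from -0.97 to -0.66 with a library left out. Itgb2 changed sign by library size only (-0.0851), ranged from -0.0418 to 0.401 with a library left out, and its thinned share of cells differed by -0.489 percentage points. In all cells, Itgal passed without a gene filter (1.64) and ranged from 0.54 to 4.24 with a library left out; Itga4 did likewise (1.62; 0.60 to 3.76), as did Itga9 (-0.86; -0.98 to -0.69; -1.06 by library size only). There Itgal and Itga4 passed without week 0 replicate 1 (both), week 5 replicate 2 (both; 1.72 and 1.44) or week 5 replicate 1 (Itga4; 1.85), and Itga9 without week 5 replicate 2 (-0.92), as in microglia-like cells (-0.89). Itgb2 there was -0.10 by library size only and -0.0462 to 0.348 with a library left out, -0.02 without week 0 replicate 2. The 371 genes called became 828 without a gene filter, 566 with the common limit, 181 thinned, 471 by DESeq2, and 298 to 1460 with a library left out, the latter without week 5 replicate 2. In all cells 302 became 918 without a gene filter and 265 to 1341 with a library left out (538 without week 0 replicate 1, 1341 without week 5 replicate 2). The mean CPM outside microglia-like cells, taken over border-associated macrophage-like cells only, was 18.7 for Itgax, 20.2 for Itgal, 116 for Itga4, 282 for Itga6, 83.0 for Itga9 and 199 for Itgb2, and Itgam was 259 at resolution 2 or clustered without integrin genes. The alternatives counted for microglia-like cells include the sum over all cells. Resolution 2 and clustering without integrin genes gave the same numbers of microglia-like cells and UMIs and the same fold changes. They are therefore not separate alternatives. Causes were not tested.

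With the replicate block, 501 genes passed (466 with crossed numbers, an alternative chosen after seeing the data), and Itgax was 6.20, Itgal 4.68, Itga4 3.04 and Itga9 -0.81; it changed no member's call. The labels give no pairing, and the replicate differences of the weeks had a correlation of -0.14. Depth limits Itgal and Itga4, at 46 and 102 UMIs in microglia-like cells in all.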
